A study of Mus musculus with 12 samples.

Results

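The filaggrin and fused S100-type protein family comprised 7 genes of the 21247 in the count table: *Flg*, *Flg2*, *Hrnr*, *Rptn*, *Crnn*, *Tchh* and *Tchhl1*. They were taken by gene symbol because of their shared protein type and neighbouring positions on the chromosome, and all 7 passed the minimum of 10 counts summed over the libraries. RNA-seq was performed on periocular skin of 6-week-old BALB/c-background mice, with 4 ft/ft and 4 ft/ftMyD88-/- libraries. ft/ft mice are homozygous for a point mutation that arose spontaneously and inactivates filaggrin, without the matted mutation in *Tmem79* that the original flaky tail strain carries. ft/ftMyD88-/- mice carry the same filaggrin mutation and in addition lack MyD88 in every tissue, so *Flg* was mutated in both groups. The comparison asked how loss of MyD88, the adaptor of toll-like and IL-1 family receptors, altered filaggrin-deficient skin. By this age, the study reports, periocular skin of ft/ftMyD88-/- mice was inflamed with a thickened epidermis, whereas ft/ft mice showed no visible inflammation. Inflammation of the skin and loss of MyD88 therefore cannot be told apart in the group differences. The 4 wild-type samples of the series were not analysed here.

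Fused S100-type proteins join a calcium-binding S100 domain at their amino end to a long run of repeats, and are deposited late in epithelial differentiation. Profilaggrin, encoded by *Flg*, is stored in the granular layer, cut into filaggrin units that bundle keratin filaments, and finally broken down to amino acids that retain water in the outer skin. The genes sit in the epidermal differentiation complex beside those of loricrin, involucrin and the late cornified envelope proteins, and mutations of human *FLG* predispose to atopic dermatitis.

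The 7 genes lay on the forward strand of chromosome 3 (RefSeq, GRCm38.p6), in the order *Crnn* (93144789 to 93149818), *Flg2* (93197273 to 93221377), *Flg* (93273546 to 93293689), *Hrnr* (93319749 to 93333572), *Rptn* (93393699 to 93399442), *Tchh* (93442330 to 93449077) and *Tchhl1* (93468754 to 93471980). Each has its repeats in a single large exon, which made up 98.7% of the longest *Flg* transcript and 77.9% of the *Crnn* transcript in GENCODE. Long repeats may bear on the counts. The study's methods give 50-base reads, which cannot be placed at one position when they come from identical repeats of a gene. Of all 50-base windows along the transcript, 20.8% occurred once in *Flg*, 30.9% in *Hrnr* and 34.7% in *Flg2*, against 89.9% in *Tchh*, 94.5% in *Rptn* and 100% in *Crnn* and *Tchhl1*. No window occurred in a transcript of another gene. The most repeated windows of the 3 repeat-rich genes show the problem. The *Flg* window stood in 17 copies, the first at chr3:93280377-93280426, the *Flg2* window in 55 copies from chr3:93203941-93203990, and the *Hrnr* window in 16 copies from chr3:93323713-93323762. They are given 5′ to 3′ on the forward strand of the GRCm38 reference, not of the ft allele.
Flg repeat: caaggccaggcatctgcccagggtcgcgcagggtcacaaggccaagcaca
Flg2 repeat: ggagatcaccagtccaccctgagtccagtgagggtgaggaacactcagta
Hrnr repeat: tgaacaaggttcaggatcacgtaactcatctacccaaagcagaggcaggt

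The study's methods name HTSeq at default settings, which leaves out reads with several reported positions, so the counts of *Flg*, *Flg2* and *Hrnr* may rest on a minority of each transcript. The sample labels name another protocol, fixed tissue with Cell Ranger, to which these window shares need not apply. How reads in repeats were counted was not tested. The pseudogene *Rplp0-ps1* lies inside the span of *Flg* and stood at 0.837 to 1.93 CPM (counts per 1000000 counts of the library, after TMM scaling in edgeR) over the 8 libraries.

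Promoters were examined because the family is known to share regulation by AP-1 and related factors. All 7 genes matched a promoter sequence in RefSeq. Exact letters were searched on both strands from 250 bases before to 50 bases after each start. TGANTCA, a loose form of the AP-1 motif, was present in 5 of the 7 promoters (*Flg*, *Flg2*, *Rptn*, *Crnn* and *Tchhl1*). It was present in 7.93% of 27025 promoters, and in the 5 it began 69 to 103 bases before the start. The members are related genes that lie side by side, so their promoters are not independent draws from all promoters. The matches read TGATTCA in *Rptn* and TGAATCA in the others. None had the C or G that the usual AP-1 site has at the open position, so binding by AP-1 cannot be read from them. TATAAA, the TATA box, was present in *Flg*, *Hrnr*, *Rptn* and *Crnn* (4 of 7) and in 14.2% of all promoters. TTGCNNAA, a C/EBP motif, was present in *Flg*, *Flg2* and *Hrnr* (3 of 7) and in 10.8%. GGGTGTG (KLF, in 7.85% of all promoters) and GCCNNNGGC (AP-2, in 16.5%) were present in none of the 7. The matches did not overlap each other, and none lay after a start. Below are the 250 bases before the start of *Flg* (chr3:93273296-93273545), *Flg2* (chr3:93197023-93197272), *Rptn* (chr3:93393449-93393698) and *Tchh* (chr3:93442080-93442329), 5′ to 3′ on the forward strand of GRCm38.p6, with matches of the 5 motifs in capitals. *Flg2* and *Rptn* passed the test for a difference in opposite directions, *Flg* did not pass it, and each of these holds TGANTCA, whereas the *Tchh* promoter holds none of the 5 motifs. The longest *Tchh* transcript has 2 exons, against 3 in *Flg*, *Flg2* and *Rptn*. Whether the annotated *Tchh* start is complete was not tested.
Flg: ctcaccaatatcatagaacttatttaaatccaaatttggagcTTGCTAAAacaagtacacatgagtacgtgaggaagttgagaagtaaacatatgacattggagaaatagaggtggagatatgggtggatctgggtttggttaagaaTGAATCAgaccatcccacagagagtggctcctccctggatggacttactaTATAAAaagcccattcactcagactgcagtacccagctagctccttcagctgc
Flg2: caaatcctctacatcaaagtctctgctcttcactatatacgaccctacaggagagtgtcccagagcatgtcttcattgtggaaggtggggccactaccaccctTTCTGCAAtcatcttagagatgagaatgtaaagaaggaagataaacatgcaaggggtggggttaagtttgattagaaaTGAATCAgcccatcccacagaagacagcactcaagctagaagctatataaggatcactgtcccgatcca
Rptn: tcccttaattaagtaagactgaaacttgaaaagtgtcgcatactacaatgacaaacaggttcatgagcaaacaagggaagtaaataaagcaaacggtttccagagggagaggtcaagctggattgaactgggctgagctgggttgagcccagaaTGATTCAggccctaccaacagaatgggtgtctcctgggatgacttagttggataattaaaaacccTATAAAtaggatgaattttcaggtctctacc
Tchh: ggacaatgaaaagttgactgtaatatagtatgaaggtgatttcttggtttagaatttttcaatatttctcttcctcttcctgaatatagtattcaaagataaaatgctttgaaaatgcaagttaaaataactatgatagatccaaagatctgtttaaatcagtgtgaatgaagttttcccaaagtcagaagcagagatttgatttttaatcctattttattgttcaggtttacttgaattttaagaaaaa

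The ft/ft libraries held 18941705 to 29255129 counts and the ft/ftMyD88-/- libraries 15802957 to 27037997. *Myd88* RNA was present in both groups (30.7 ± 4.74 CPM in ft/ft and 41.2 ± 7.29 CPM in ft/ftMyD88-/-, SD, n = 4) and was higher in the libraries labelled ft/ftMyD88-/- (log2 fold change 0.42, edgeR adjusted p = 0.0484), a call lost in 6 of the 8 fits that omitted a library, all but those without ft/ft replicate 2 or ft/ftMyD88-/- replicate 3. A gene-level count can include reads from exons that a deletion leaves in place, so it does not check the labels. *Tmem79*, whose mutation the ft/ft line is stated to lack, stood at 59.2 ± 2.92 CPM in ft/ft and 16.4 ± 2.10 CPM in ft/ftMyD88-/- (log2 fold change -1.85, edgeR adjusted p = 5.1e-07). Whether the groups differ in genotype at *Tmem79* was not tested, and such a difference could not be told apart from MyD88 loss in any comparison here. The study describes sex-matched female mice, but *Xist* was at 0.0107 CPM in ft/ft and 49.4 CPM in ft/ftMyD88-/-, and the Y-linked *Ddx3y* at 65.0 and 0.147 CPM. That is the pattern of male mice in ft/ft and of female mice in ft/ftMyD88-/-. Sex and genotype therefore cannot be told apart in any group difference given here. Suprabasal keratinocyte markers were abundant in every library (*Krt10*, 4734 to 8271 CPM), and the corneal keratin *Krt12* stayed at or below 0.919 CPM. The sample labels name no animals, and the study's legend counts as many mice as libraries in each group.

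Over the family, 2 of 7 genes passed the test for a difference between the groups, *Flg2* with lower and *Rptn* with higher RNA in ft/ftMyD88-/- skin. The test was edgeR's quasi-likelihood test over 20454 genes with Benjamini-Hochberg adjustment at 0.05, under which 23.3% of all genes differed (10.9% higher and 12.3% lower in ft/ftMyD88-/-). The same 2 genes were those whose libraries did not overlap between the groups, which held for 26.7% of all genes (12.5% higher, 14.2% lower). The median log2 fold change of the 7 genes was 1.23, and that of all genes tested was 0.01. *Flg*, *Crnn*, *Tchh* and *Tchhl1* had higher means in ft/ftMyD88-/- without passing the test, and *Hrnr* was near the same level in both. In bulk skin, fewer cells of a type and less RNA per cell cannot be told apart.

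**Figure D1:**
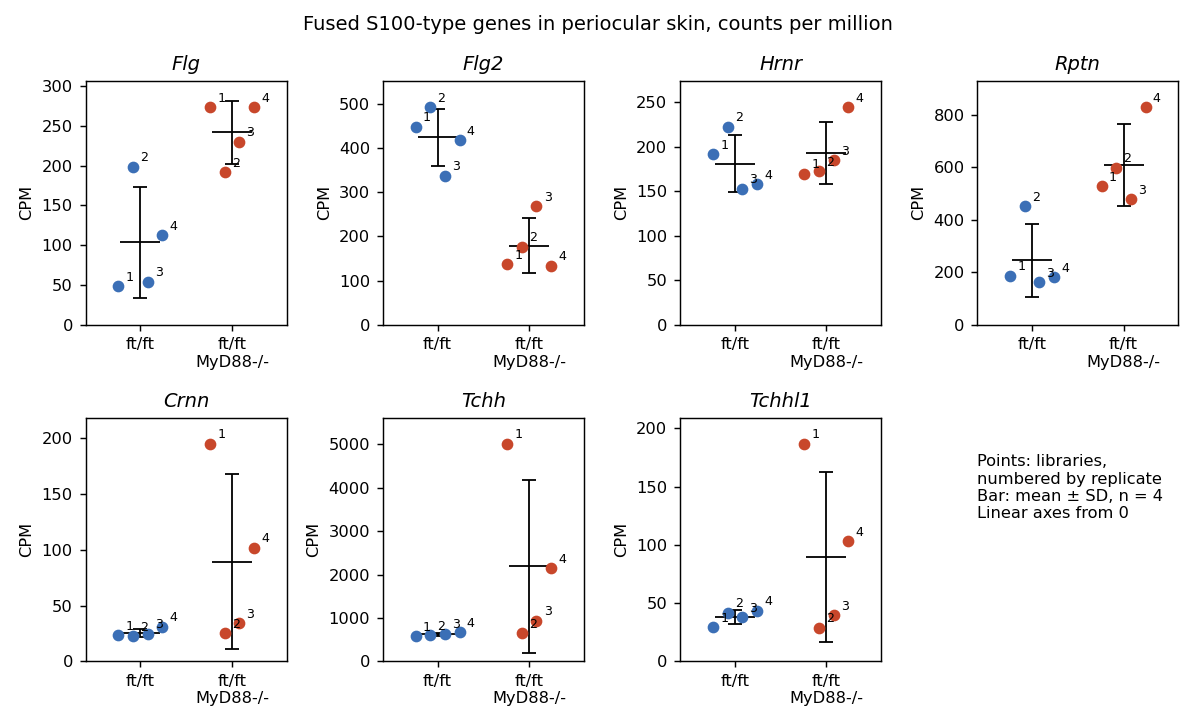
CPM of the 7 genes in each library (points, numbered by replicate), with the group mean and SD (bars, n = 4) on linear axes from 0. *Flg2* libraries of ft/ftMyD88-/- all sit below those of ft/ft and *Rptn* libraries all above, while *Crnn*, *Tchh* and *Tchhl1* spread widely over the ft/ftMyD88-/- libraries.

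*Flg* encodes profilaggrin, the mutated protein of the model. Its RNA stood at 48.3, 198.6, 54.2 and 112 CPM in ft/ft replicates 1 to 4 and at 273, 191, 229.8 and 273 CPM in ft/ftMyD88-/- replicates 1 to 4. The groups overlapped through 1 library, ft/ft replicate 2, which lay above ft/ftMyD88-/- replicate 2. The means were 103 ± 69.8 and 242 ± 39.5 CPM (SD, n = 4), a log2 fold change of 1.22 (SE 0.484) with a 95% interval from 0.06 to 2.39 and an edgeR adjusted p of 0.120. Leaving out any library but ft/ft replicate 2 gave log2 fold changes of 0.99 to 1.32, and none passed (edgeR adjusted p from 0.155 to 0.214). Without ft/ft replicate 2 the log2 fold change was 1.75 and the edgeR adjusted p 0.0121. That library also had more *S100a8*, made by neutrophils and by inflamed keratinocytes, with 88.4 CPM against 1.53 to 8.96 CPM in the other ft/ft libraries. All ft/ftMyD88-/- libraries had more still, at 145 to 405 CPM, and the part of this in the *Flg* values was not tested.

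*Flg2* encodes filaggrin-2, a repeat protein of the granular and cornified layers that is processed much as filaggrin is. It stood at 448, 492, 337 and 417 CPM in ft/ft replicates 1 to 4 and at 136, 176, 268 and 134 CPM in ft/ftMyD88-/- replicates 1 to 4. Every ft/ftMyD88-/- library lay below every ft/ft library. The means were 424 ± 65.2 and 179 ± 62.5 CPM, 2.37-fold lower in ft/ftMyD88-/- (log2 fold change -1.25, SE 0.224, edgeR adjusted p = 0.00431). The difference passed the test in all 16 alternative analyses, with log2 fold changes from -1.49 to -0.93.

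*Hrnr* encodes hornerin, another repeat protein of the cornified envelope. It stood at 191, 222, 153 and 158 CPM in ft/ft replicates 1 to 4 and at 169.6, 173, 185 and 244 CPM in ft/ftMyD88-/- replicates 1 to 4. The groups overlapped over most of their range. The log2 fold change was 0.09 (SE 0.145) with a 95% interval from -0.23 to 0.41 and an edgeR adjusted p of 0.698.

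*Rptn* encodes repetin, a cornified envelope precursor found in the granular layer, the tongue and the hair follicle. It stood at 187, 453, 161 and 180.4 CPM in ft/ft replicates 1 to 4 and at 529, 599, 478 and 829 CPM in ft/ftMyD88-/- replicates 1 to 4. ft/ft replicate 2 was again far above the rest of its group but stayed below every ft/ftMyD88-/- library. The means were 245 ± 139 and 609 ± 155 CPM, 2.48-fold higher in ft/ftMyD88-/- (log2 fold change 1.31, SE 0.382, edgeR adjusted p = 0.0478). This call stood close to the threshold. It was lost when any 1 of 7 libraries was left out of the edgeR fit, with log2 fold changes of 1.14 to 1.42 and adjusted p from 0.0592 to 0.112, and without ft/ft replicate 2 it was a log2 fold change of 1.79 with an adjusted p of 0.000256.

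**Figure D2:**
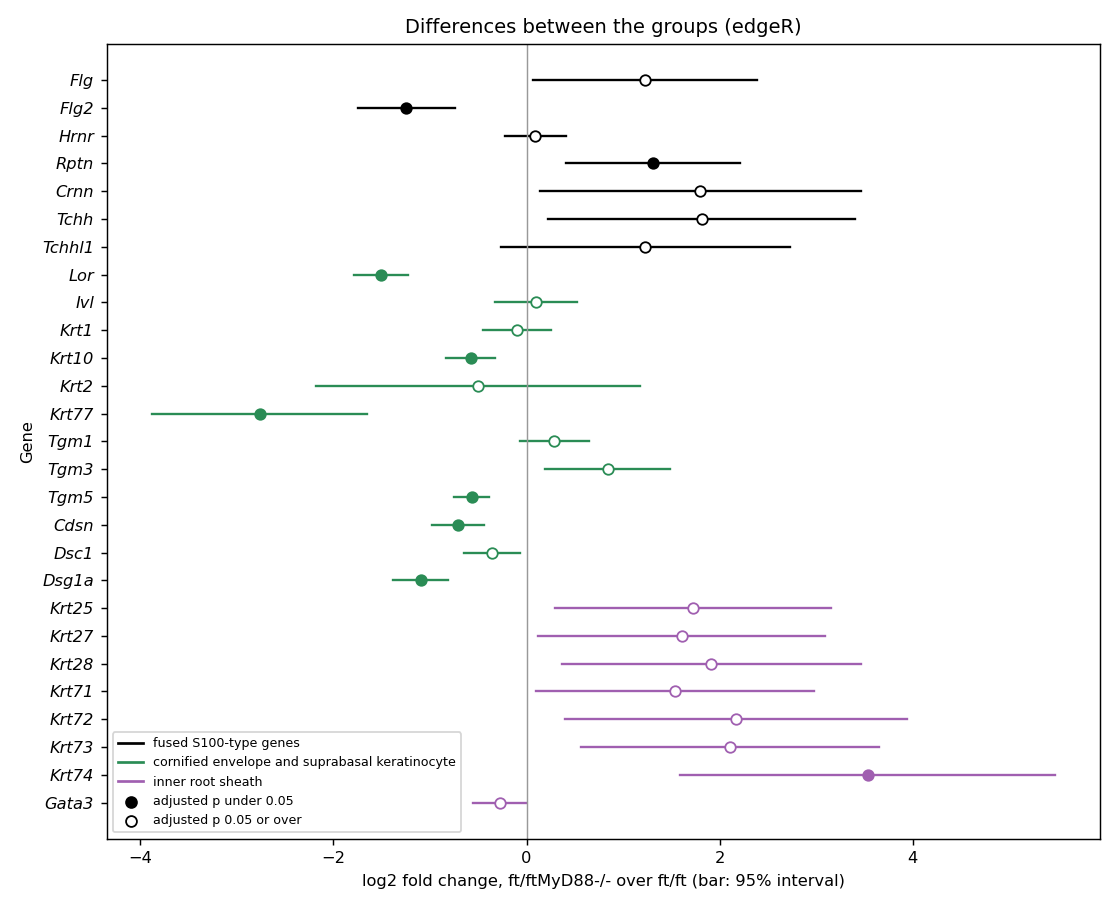
Log2 fold change, ft/ftMyD88-/- over ft/ft, with 95% intervals from the edgeR fit (4 libraries per group), for the 7 genes, cornified envelope and suprabasal genes, and inner root sheath genes; filled points passed the test. *Flg2* lies on the side of *Lor* and *Krt77*, below 0, and *Tchh*, *Crnn* and *Tchhl1* have wide intervals like those of the inner root sheath keratins.

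*Tchh* encodes trichohyalin, which hardens the inner root sheath of the hair follicle, the layer that surrounds the growing hair shaft. It stood at 578, 604, 639 and 668 CPM in ft/ft replicates 1 to 4 and at 5015, 650.3, 941 and 2151 CPM in ft/ftMyD88-/- replicates 1 to 4. ft/ft libraries lay close together, whereas ft/ftMyD88-/- libraries ran from within the ft/ft range to several times above it. The means were 622 ± 39.2 and 2189 ± 1993 CPM (log2 fold change 1.81, SE 0.660, edgeR adjusted p = 0.0981). *Tchh* alone made up 77.1% of the family's counts in ft/ftMyD88-/- replicate 1.

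*Tchhl1* encodes trichohyalin-like 1, and *Crnn* encodes cornulin, best known from squamous epithelium of the oesophagus. *Tchhl1* stood at 29.4, 41.7, 37.9 and 43.6 CPM in ft/ft replicates 1 to 4 and at 187, 28.8, 39.6 and 103 CPM in ft/ftMyD88-/- replicates 1 to 4 (log2 fold change 1.23, SE 0.619, edgeR adjusted p = 0.208). *Crnn* stood at 23.7, 22.5, 24.9 and 31.1 CPM in ft/ft replicates 1 to 4 and at 194.8, 25.5, 34.3 and 102 CPM in ft/ftMyD88-/- replicates 1 to 4 (log2 fold change 1.80, SE 0.688, edgeR adjusted p = 0.113). Both followed the order of *Tchh* among the ft/ftMyD88-/- libraries, with replicate 1 highest, then 4, 3 and 2, and for both the groups overlapped. *Flg* had the same order there over a smaller range, 191 to 273 CPM, with replicates 1 and 4 nearly equal. Without ft/ftMyD88-/- replicate 1 the log2 fold changes were 1.01 for *Tchh*, 1.07 for *Crnn* and 0.58 for *Tchhl1*. Without replicates 1 and 4 together, a choice made after seeing the data, they were 0.36, 0.23 and -0.15.

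The 7 profiles over the 8 libraries fell close together for some pairs and far apart for others. Likeness was measured as the root mean square difference of log2 CPM after centring each gene on its own mean, so that 0 is an identical profile. *Crnn* and *Tchh* differed by 0.128, *Crnn* and *Tchhl1* by 0.291, *Tchh* and *Tchhl1* by 0.297, and *Flg* and *Rptn* by 0.398. *Flg* and *Flg2* differed by 1.51, and the largest distance was 1.70, between *Flg2* and *Crnn*. Among 11935 genes with a mean of at least 5 CPM, the 5 profiles most like that of *Flg* were those of *Mki67* (0.240), *Map3k14* (0.355), *Tet2* (0.373), *Tdh* (0.374) and *Upf1* (0.396). All points share the same 8 libraries, and the group difference itself enters each distance.

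Genes of the inner root sheath (the keratins *Krt25*, *Krt27*, *Krt71*, *Krt73* and related genes) followed *Tchh* in sum over the ft/ftMyD88-/- libraries, but not within ft/ft. In ft/ft replicates 1 to 4, *Krt71* stood at 1016, 632, 814 and 944 CPM. It was highest in replicate 1, where *Tchh* was lowest at 578 CPM. The summed level of the 8 listed genes was 1339 to 2109 CPM in ft/ft, and 11051, 1771, 2743 and 6489 CPM in ft/ftMyD88-/- replicates 1 to 4. Of the 8 genes, 1 rose, 0 fell and 7 did not pass the edgeR test, beside 10.9% of all genes higher. Their median log2 fold change was 1.82. *Gata3*, the 1 listed gene that is not a keratin, went the other way. It had 82.1 ± 8.54 CPM in ft/ft and 67.7 ± 12.4 CPM in ft/ftMyD88-/- (log2 fold change -0.28, edgeR adjusted p = 0.130). The gene that passed, *Krt74*, was at or below 0.115 CPM in every ft/ft library. Keratins of the hair cortex, *Krt31*, *Krt33a*, *Krt34* and *Krt85*, summed to 66.6 to 183 CPM in ft/ft and reached 1698 CPM in ft/ftMyD88-/- replicate 1 and 705 CPM in replicate 4. Of these, 0 of the 4 passed the test, beside 10.9% of all genes higher.

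**Figure D3:**
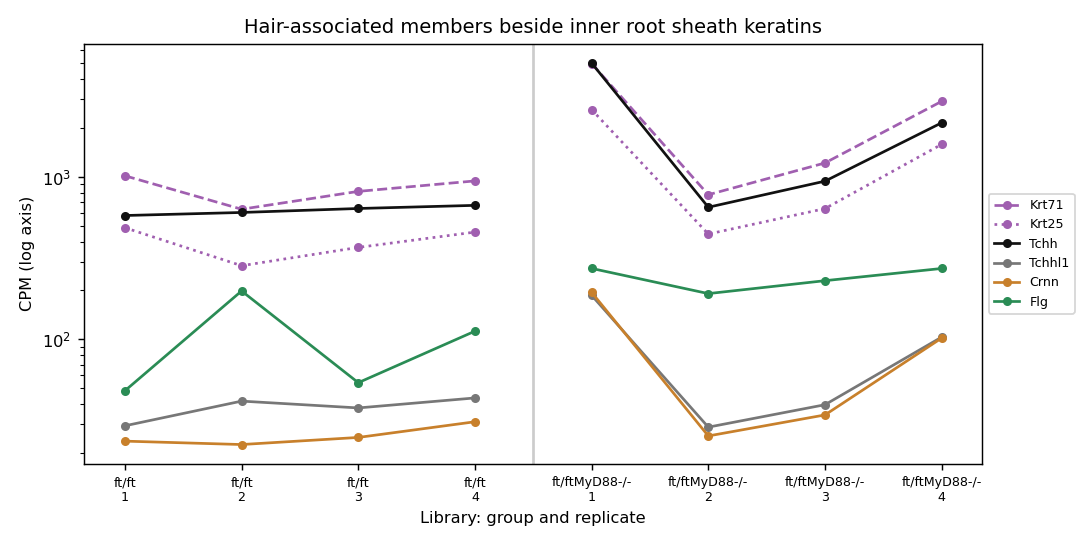
CPM on a log axis of *Tchh*, *Tchhl1*, *Crnn*, *Flg* and the inner root sheath keratins *Krt71* and *Krt25* in each of the 8 libraries, with lines joining libraries of a group for sight only. *Tchh*, *Tchhl1* and *Crnn* follow the keratins through the ft/ftMyD88-/- libraries, highest in replicates 1 and 4. *Flg* has the same order of ft/ftMyD88-/- libraries in smaller steps, from 191 to 273 CPM.

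Set against *Krt71* in the same library, *Tchh*, *Crnn* and *Tchhl1* overlapped between the groups. This ratio was chosen after the values had been seen. *Tchh* counts were 57.0%, 95.5%, 78.5% and 70.7% of *Krt71* counts in ft/ft replicates 1 to 4 and 100.6%, 83.7%, 77.3% and 73.8% in ft/ftMyD88-/- replicates 1 to 4, with overlapping groups. The mean log2 ratio differed by 0.17 for *Tchh* (two-sided exact permutation test, p = 0.4), by 0.15 for *Crnn* (exact p = 0.457) and by -0.34 for *Tchhl1* (exact p = 0.2). The smallest p this exact test can give with 4 against 4 libraries is 0.0286.

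Ratios within a library do not depend on the scaling, and the main ones compared each gene with *Krt10* and with *Flg2*. Differences of these log2 ratios are given as ft/ftMyD88-/- minus ft/ft, with two-sided exact permutation tests, unadjusted over the 13 ratios compared. *Flg* counts were 10.8%, 40.4%, 16.1% and 27.0% of *Flg2* counts in ft/ft replicates 1 to 4 and 201%, 108%, 85.8% and 204% in ft/ftMyD88-/- replicates 1 to 4. *Flg2* exceeded *Flg* in all 4 ft/ft libraries, and *Flg* exceeded *Flg2* in all ft/ftMyD88-/- libraries but replicate 3. The mean log2 ratio of *Flg* to *Flg2* was -2.26 ± 0.84 in ft/ft and 0.48 ± 0.63 in ft/ftMyD88-/- (SD, n = 4), a difference of 2.75 with an exact permutation p of 0.0286. Ratios to *Flg2* also separated the groups without overlap for *Rptn* (2.71), *Tchh* (2.66), *Crnn* (2.64), *Tchhl1* (2.15) and *Hrnr* (1.38), each with the smallest exact p of 0.0286. The common denominator *Flg2*, lower in ft/ftMyD88-/-, enters all of them.

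*Krt10*, a keratin of suprabasal keratinocytes, itself fell from 7586 ± 720.3 to 5082 ± 464 CPM (log2 fold change -0.58, edgeR adjusted p = 0.00450). Relative to it, *Flg* was higher in ft/ftMyD88-/- by 2.03, *Rptn* by 1.99, *Tchh* by 1.94, *Crnn* by 1.92 and *Hrnr* by 0.67 on the log2 scale, each with an exact permutation p of 0.0286 and no overlap. The lower *Krt10* enters each of these, including *Hrnr*, whose own log2 fold change was 0.09. How many of all genes would separate in the same way against *Krt10* or *Flg2* was not counted. *Flg* counts were 0.594% to 2.40% of *Krt10* counts in ft/ft and 4.00% to 5.77% in ft/ftMyD88-/-. *Tchhl1* (1.44) and *Flg2* (-0.72) overlapped between the groups, each with an exact p of 0.0571. With *Krt1* as the denominator, which did not pass the test itself, the difference was 1.54 for *Flg* and 1.51 for *Rptn* (exact p = 0.0286 for both), -1.20 for *Flg2* (exact p = 0.0286), and 0.18 for *Hrnr* (exact p = 0.2), so the *Hrnr* difference did not pass against *Krt1*. *Tchh* (1.46) and *Crnn* (1.44) also no longer separated the groups against *Krt1* (exact p = 0.0571 for both).

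**Figure D4:**
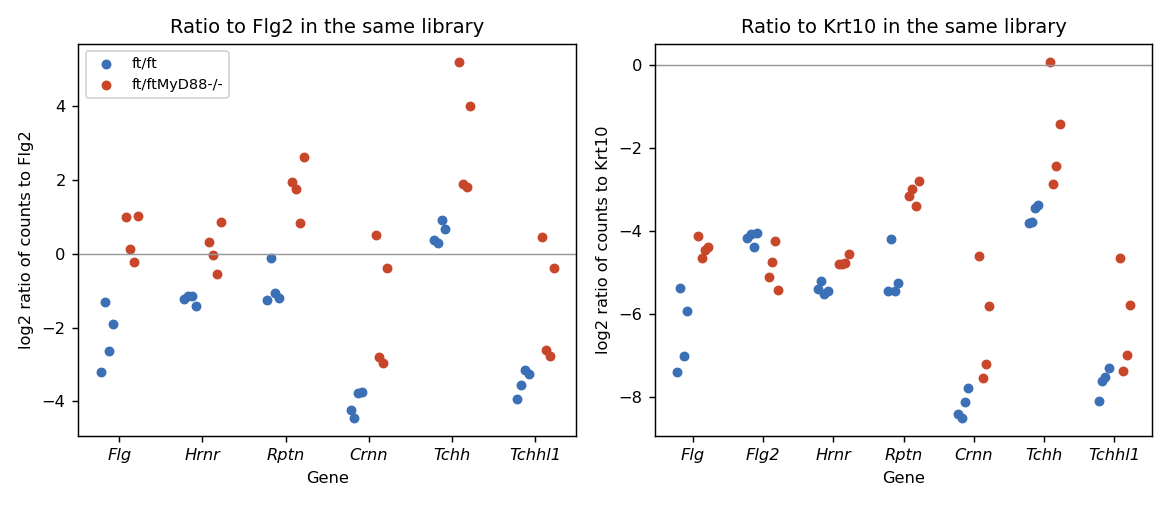
Log2 ratio of each gene's counts to *Flg2* (left) and to *Krt10* (right) in the same library, with 1 point per library and 4 libraries per group. Every ratio to *Flg2* is higher in all ft/ftMyD88-/- libraries than in any ft/ft library, and against *Krt10* the *Flg2* and *Tchhl1* points overlap between the groups.

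Per length, the order of the genes differed from that by CPM. Whether counts grew with transcript length was not tested, and the protocol is named differently by the study and the sample labels. In ft/ft, the mean level per kb of transcript was 107 CPM per kb for *Tchh*, 59.2 for *Rptn*, 20.4 for *Flg2*, 18.5 for *Tchhl1*, 16.2 for *Hrnr*, 13.7 for *Crnn* and 7.13 for *Flg*. The ranges over libraries of neighbours in this order overlapped, except between *Rptn* and *Flg2*. In ft/ftMyD88-/-, means were 376 CPM per kb for *Tchh*, 147 for *Rptn*, 47.8 for *Crnn*, 43.4 for *Tchhl1*, 17.2 for *Hrnr*, 16.7 for *Flg* and 8.58 for *Flg2*, and neighbours overlapped except *Rptn* with *Crnn* and *Flg* with *Flg2*. Counted per kb of windows that occur once, *Flg* stood at 34.4 in ft/ft and 80.6 in ft/ftMyD88-/-, *Flg2* at 58.9 and 24.8, and *Hrnr* at 52.6 and 56.0 CPM per kb.

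Genes that process profilaggrin or break filaggrin down moved in both directions. Of 13 listed genes, 2 rose, 6 fell and 5 did not pass the edgeR test, beside 10.9% of all genes higher and 12.3% lower. Their median log2 fold change was 0.03. *Casp14*, the caspase that takes part in filaggrin breakdown, rose from 110 ± 21.2 to 235 ± 90.0 CPM (log2 fold change 1.10, edgeR adjusted p = 0.0225), and the desquamation protease *Klk7* was the other that rose. The *Casp14* call was lost when any of ft/ft replicates 1, 3 and 4 or ft/ftMyD88-/- replicate 1 was left out, and the *Klk7* call without ft/ft replicate 3 or 4. *Hal*, histidase, which converts histidine from filaggrin to urocanic acid, fell from 390 ± 41.9 to 192 ± 28.0 CPM (log2 fold change -1.03, edgeR adjusted p = 0.000173). *Klk5*, a second desquamation protease, fell from 161 ± 16.1 to 90.6 ± 18.6 CPM, and *Spink5*, which encodes the inhibitor of both kallikreins, from 1222 ± 152 to 693 ± 66.7 CPM (edgeR adjusted p = 0.00116 and 0.000572). *Padi3*, a deiminase of trichohyalin, had 34.7 ± 7.23 and 142 ± 120 CPM without passing the test (edgeR adjusted p = 0.0765), and was picked out after its values were seen.

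The cornified envelope and suprabasal genes around the family were lower or did not pass the test. Of 12 listed genes, 0 rose, 6 fell and 6 did not pass, beside 12.3% of all genes lower. Their median log2 fold change was -0.53. *Krt77*, a suprabasal keratin, fell from 4229 ± 906 to 622 ± 418 CPM (log2 fold change -2.77, edgeR adjusted p = 0.00675), and *Lor*, loricrin, from 4030 ± 644 to 1417 ± 35.3 CPM (-1.51, adjusted p = 2.3e-05). The desmosomal *Dsg1a* and corneodesmosomal *Cdsn* fell by 1.10 and 0.71 on the log2 scale. *Flg2* thus lay among the genes of this layer that fell, and *Flg*, *Rptn* and *Hrnr* did not fall.

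Basal keratinocyte genes mostly fell. Of 6 basal genes, 0 rose, 5 fell and 1 did not pass, beside 12.3% of all genes lower. Their median log2 fold change was -0.63, and *Krt15* fell from 5037 ± 642 to 1964 ± 358 CPM. Of 5 hyperproliferative genes, 1 rose, 0 fell and 4 did not pass, with a median of 0.49, beside 10.9% of all genes higher. *Mki67*, the proliferation marker nearest to *Flg* in profile, rose from 47.9 ± 23.6 to 110 ± 15.6 CPM (edgeR adjusted p = 0.0362), a call lost in 7 of the 8 fits that omitted a library, all but that without ft/ft replicate 2. Of 11 regulators of epidermal differentiation, 0 rose, 1 (*Ahr*) fell and 10 did not pass, beside 12.3% of all genes lower. Their median was -0.07. *Ahr*, a receptor that drives *Flg* transcription, fell by 0.39 on the log2 scale (edgeR adjusted p = 0.0197), a call lost without ft/ft replicate 3, ft/ftMyD88-/- replicate 1 or ft/ftMyD88-/- replicate 4.

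Markers of other tissues in the biopsy also moved between the groups. The 4 skeletal muscle genes all fell, beside 12.3% of all genes lower. Their sum was 6333 to 8624 CPM in ft/ft and 2466 to 4554 CPM in ft/ftMyD88-/-. Of 6 mucosal and conjunctival genes, 2 fell and 0 rose, beside 12.3% of all genes lower. Their sums were 1435 to 2547 CPM in ft/ft and 893 to 1735 CPM in ft/ftMyD88-/-, which overlapped. The 2 that fell, *Krt13* and *Krt8*, each lost the call in 6 of the 8 fits that omitted a library, all but those without ft/ft replicate 4 or ft/ftMyD88-/- replicate 2. The 4 neutrophil genes summed to 21.5 to 250.03 CPM in ft/ft and 399 to 958 CPM in ft/ftMyD88-/-, where most came from *S100a8* and *S100a9*, which keratinocytes also make. *Csf3r* was the 1 of the 4 that rose, beside 10.9% of all genes higher. It lost the call in 6 of the 8 fits that omitted a library, all but those without ft/ft replicate 2 or ft/ftMyD88-/- replicate 3. *Cxcr2* had a log2 fold change of 0.28 and did not pass (edgeR adjusted p = 0.383). The part of these tissues in the differences of the 7 genes was not tested.

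Along the chromosome, fold changes did not keep one direction. Of 9 tested genes within 200 kb of the family that are not members, 4 rose, 1 fell and 4 did not pass the edgeR test. The largest were *Lce3d* (14.6-fold higher, from 0.557 ± 0.369 to 8.63 ± 7.60 CPM), *Lce3e* (6.70-fold higher, from 0.702 ± 0.368 to 4.97 ± 3.12 CPM) and *Lce1m* (5.32-fold lower, from 511 ± 104 to 95.9 ± 32.8 CPM), all genes of late cornified envelope proteins. Within 500 kb, 5 rose and 9 fell of 25 tested, beside 10.9% of all genes higher and 12.3% lower. The S100 genes on the far side of *Tchhl1*, *S100a11* and *S100a10*, had log2 fold changes of -0.10 and -0.06 and did not pass the test.

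**Figure D5:**
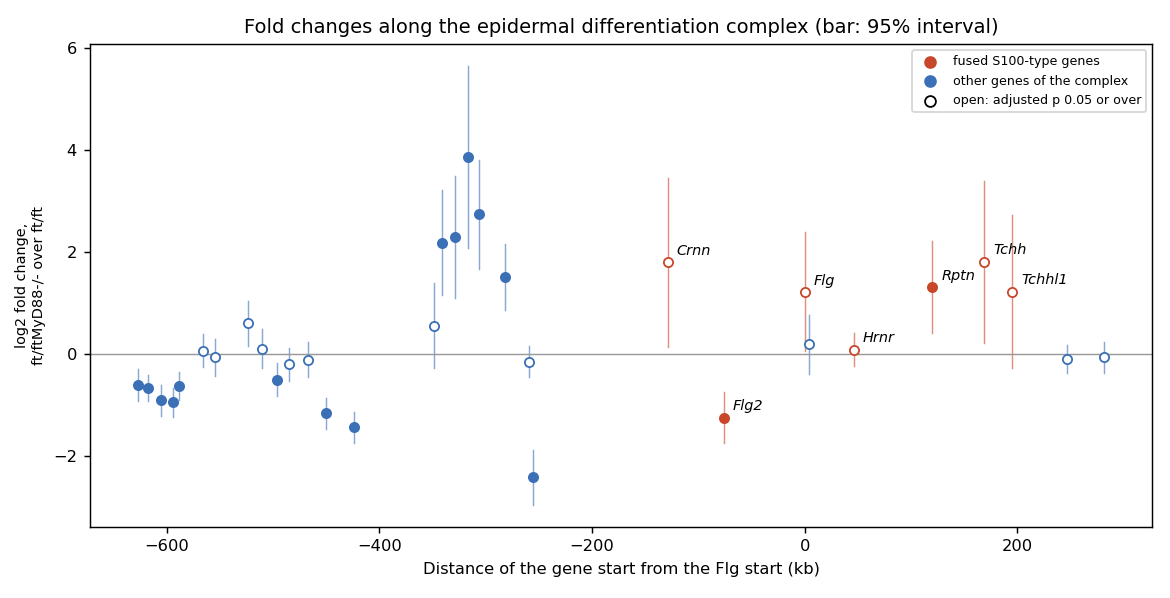
Log2 fold change with 95% interval of each tested gene against the distance of its start from the *Flg* start, in kb, over the part of the epidermal differentiation complex within 500 kb of the family; filled points passed the edgeR test. *Flg2* lies below 0 and its neighbours *Crnn* and *Flg* above, and late cornified envelope genes to the left lie on both sides.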

How the data were processed

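The data are raw read counts per gene, deposited by the authors without normalization for 4 ft/ft and 4 ft/ftMyD88-/- libraries of periocular skin. According to the study's methods, polyA-selected libraries were read in 50 single-end cycles, aligned to GRCm38.p6 with HISAT and TopHat2 and counted with HTSeq at default settings, whereas the sample labels name a fixed-tissue protocol and Cell Ranger. Strand setting and versions are not given in the sources used here. Groups came from the sample labels. The test covered the 20454 genes with 10 or more summed counts and used edgeR 4.0.16 under R 4.3.3 (TMM, robust quasi-likelihood test, two-sided, Benjamini-Hochberg over all genes tested, threshold 0.05). CPM are counts per 1000000 of TMM-scaled library size. Ratios added 0.5 to each count, and likeness added 0.5 CPM. A count of 0 allows up to 3 counts (0.102 to 0.183 CPM), which covers counting error only.

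Alternatives were DESeq2 1.42.0, limma voom (limma 3.58.1), other normalizations and filters, the replicate number as a block, and leaving out libraries. Replicates of a group differed by far more than sampling noise (chi-square over its degrees of freedom, 15.1 or more), so none was counted as a library deposited again. In simulated counts for this comparison, with 200 genes changed 4-fold among 20454 drawn and 20185 tested, the fit called 200 of the 200 and 7 unchanged genes. The changed genes were taken from well-counted ones, and every gene had the same spread between libraries (coefficient of variation 0.18). The simulation therefore does not measure the power for genes as variable as *Tchh* or *Crnn*. The members and gene lists were chosen with earlier results of these data known. Named were all members, label checks, *Krt10*, up to 4 called genes per list and 3 neighbours of largest fold change, and the 5 profiles nearest *Flg*. *Klk7*, *Padi3*, *Krt1*, *Krt71*, *Krt74*, *S100a8* and marker genes were added to these, some after values were seen. RefSeq (GRCm38.p6) held 16066 of the 21247 symbols, and transcripts came from GENCODE M21. Proteins are not printed.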

Additional observations from a re-analysis of the deposited data

Results flagged for a closer look

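Each set of 4 libraries was examined for a lowest or highest value far from the other 3, by the gap to its neighbour over the whole range (Dixon's test). Of 40 sets examined, 4 held such a value, and chance gives about 1 in 20. ft/ft replicate 2 gave 3 of them, all for *Rptn*: 453 CPM, a log2 ratio to *Krt10* of -4.19 and a log2 ratio to *Flg2* of -0.12, each above the other ft/ft libraries. The remaining value was the log2 ratio of *Hrnr* to *Krt10* in ft/ftMyD88-/- replicate 4, which at -4.55 was above the other 3 of its group.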

How the results depend on the processing

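The number of the 7 genes that passed the test was 2, and it was 5 with DESeq2 in place of edgeR (*Flg*, *Flg2*, *Rptn*, *Crnn* and *Tchh*), 3 with limma voom, 1 with no filter on low counts, 1 to 3 with 1 library left out and 1 without ft/ftMyD88-/- replicates 1 and 4 together. Beside these, 5642 of all genes passed with DESeq2, 4683 with limma voom and 4699 with no filter, against 4764 in the main fit. *Flg* passed with DESeq2 (adjusted p = 0.0450), with limma voom (adjusted p = 0.0199) and without ft/ft replicate 2. *Rptn* had an edgeR adjusted p of 0.0526 with no filter. *Tchh* passed without ft/ftMyD88-/- replicate 2 (log2 fold change 2.13, edgeR adjusted p = 0.0445). Of 112 alternative fold changes, 94 kept direction and side of the threshold, 9 fell below it, 6 rose past it and 3 reversed: *Hrnr* to -0.035 without ft/ftMyD88-/- replicate 4 (-0.035 to 0.20 with 1 library left out) and to -0.012 without replicates 1 and 4 together, and *Tchhl1* to -0.15 without these 2. The log2 ratio difference of *Tchhl1* was -0.34 with *Krt71* as denominator. Against *Krt1*, *Crnn* (1.44, exact p = 0.0571) and *Tchh* (1.46, exact p = 0.0571) no longer separated the groups. Of the 55 list genes, 22 passed, 35 with DESeq2 and 18 to 30 with 1 library left out; inner root sheath genes passing were 7 with DESeq2 and 7 without ft/ftMyD88-/- replicate 2. Neighbour genes passing were 14 within 500 kb in place of 5 within 200 kb. Over all genes, 4764 passed and 3344 to 4668 with 1 library left out. Scaling by library size only gave 4638 higher and 1326 lower and shifted the median log2 fold change by 0.18, with 2 of the 7 genes passing. The causes were not tested. Replicate numbers are shared by both groups but did not pair the libraries (correlations of deviations -0.29, 0.05, 0.07 and -0.07). With the replicate number as a block, 4039 genes and 2 of the 7 passed, with log2 fold changes of 1.47 for *Flg* (edgeR adjusted p = 0.178), -1.30 for *Flg2* (0.0132) and 1.42 for *Rptn* (0.0267).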
